A study of Mus musculus with 9 samples.

Results

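The ADAM metalloprotease family was examined in RNA-seq of mouse testes with and without RFX2, a transcription factor expressed in spermatocytes and round spermatids. Members were all genes whose GENCODE M21 symbol starts with Adam or Adamts and a number, or with Adamtsl, and which had at least 10 counts summed over the libraries. This rule took 57 of the 23074 genes in the count table. They comprised 20 ADAM genes known from male germ cells (testis ADAMs), 13 ADAM genes known from other tissues (somatic ADAMs), 19 ADAMTS genes and 5 ADAMTSL genes. Decapsulated testes, that is, testes without their outer capsule, were taken at postnatal days 29 to 30 from 5 wild type and 4 Rfx2-/- mice, with 1 library per mouse. The paper describes a line of mixed background, derived from 129/Sv, C57BL/6 and FVB/N mice, and another line backcrossed onto C57BL/6. It does not say which line was used for RNA-seq. The Rfx2-/- mice came from a single targeted allele from which exon 7, encoding most of the DNA-binding domain, was deleted in the germ line by Cre recombinase, so every cell of these animals lacked it.

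ADAM proteins are membrane-anchored and combine a protease domain with a disintegrin domain that binds adhesion receptors. Many somatic ADAMs are sheddases, which release the outer part of other membrane proteins. In rodents, a large branch of the family is expressed almost exclusively in male germ cells and its proteins reach the sperm surface, where some of them serve in sperm migration and egg binding. ADAMTS proteins are secreted proteases of the extracellular matrix, and ADAMTSL proteins resemble them without the protease domain.

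Members that act as proteases carry a zinc-binding site, in which histidine, glutamate, histidine, usually glycine, and histidine stand at fixed distances. Coding sequences of GENCODE M21 (GRCm38) were therefore searched for this order of codons, a run of 11 codons. The runs below are from the testis ADAMs around which the results turn and from Adamts16, and capitals mark the codons of the pattern. They start at codon 345 in Adam21, 329 in Adam26a and Adam26b, 355 in Adam25 and Adam39, 341 in Adam34, 342 in Adam24 and 431 in Adamts16.
Adam21: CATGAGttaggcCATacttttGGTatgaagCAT
Adam26a: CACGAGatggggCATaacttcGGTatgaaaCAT
Adam26b: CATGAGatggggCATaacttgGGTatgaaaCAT
Adam25: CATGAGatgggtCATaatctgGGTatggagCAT
Adam39: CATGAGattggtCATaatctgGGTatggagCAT
Adam34: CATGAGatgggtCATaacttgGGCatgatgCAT
Adam24: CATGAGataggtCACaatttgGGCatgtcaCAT
Adamts16: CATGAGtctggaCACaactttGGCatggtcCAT

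The pattern was found in 11 of 20 testis ADAMs, 9 of 13 somatic ADAMs, 13 of 19 ADAMTS genes and none of 5 ADAMTSL genes. Testis ADAMs without it were Adam2, Adam3, Adam4, Adam5, Adam6a, Adam6b, Adam18, Adam29 and Adam32. Somatic ADAMs without it were Adam7, Adam11, Adam22 and Adam23. Of the 6 ADAMTS genes without it, 5 matched with an asparagine codon in place of the glycine codon.

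The libraries held 13574764 to 15193330 counts each, apart from Rfx2-/- replicate 1 with 28800855. Rfx2 itself had 470.5 to 623.2 CPM (counts scaled to library size, with TMM factors) in the wild type libraries and 61.46 to 199.0 CPM in the Rfx2-/- libraries, without overlap. Markers of all 10 testis cell types examined were detected. A pair of libraries stood apart from the rest of their genotype, namely wild type replicate 3 and Rfx2-/- replicate 2, and results were also computed without each of them. Genotypes were compared with edgeR's quasi-likelihood test, adjusted over the 15613 genes tested, and a gene was called at an adjusted p of at most 0.01 with a change above 2-fold. Log2 changes are the fitted fold changes of Rfx2-/- over wild type, each with its standard error (SE). Of the 57 members, 53 had enough counts to be tested.

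Among the 53 members tested, 7 calls were lower and 2 were higher in the knockouts. The same calls were made for 3.68% (lower) and 0.826% (higher) of all genes tested. At an adjusted p of at most 0.05 and with no limit on fold, 9 members were lower and 2 higher, against 7.31% and 3.48% of all genes. Those called lower were the testis ADAMs Adam21, Adam26a, Adam25, Adam39 and Adam34, the somatic Adam11 and Adamtsl5. Those called higher were Adamts16 and Adamtsl2. The genotypes did not overlap for any of these 9 genes. Such separation was found for 12 members below wild type and 3 above, against 9.70% and 6.16% of all genes tested. In whole testes, fewer cells of a type and less RNA per cell cannot be told apart.

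A strong decrease was found for Adam21 (ENSMUSG00000008438, chromosome 12, 81558584 to 81568474, minus strand), a membrane protease gene with a single coding exon. It had 34.38, 37.75, 21.19, 38.02 and 42.22 CPM in wild type replicates 1 to 5 and 1.924, 4.275, 1.907 and 2.222 CPM in Rfx2-/- replicates 1 to 4. Every knockout value was thus far below the lowest wild type value, and Rfx2-/- replicate 2 was the highest of its genotype. The means were 34.7 ± 8.06 CPM (SD, n = 5) and 2.58 ± 1.14 CPM (SD, n = 4), giving a log2 change of -3.76 (SE 0.30, adjusted p 3.70e-06 by edgeR).

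Adam26a (ENSMUSG00000048516, chromosome 8, 43568278 to 43576707, minus strand), one of the testases, which are sperm proteases with a single coding exon, was 12.2-fold lower. Its wild type libraries had 28.42, 26.77, 18.07, 31.09 and 38.80 CPM and its Rfx2-/- libraries 2.124, 2.538, 2.928 and 1.830 CPM. The knockout libraries lay close together and far below wild type replicate 3, the lowest of the wild type. This gave a log2 change of -3.61 (SE 0.25, adjusted p 1.14e-06 by edgeR). The fold changes of Adam21 and Adam26a differed by less than their SE, and their order was reversed without Rfx2-/- replicate 3 (-3.62 and -3.69).

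The testase Adam25 (ENSMUSG00000071937, chromosome 8, 40752208 to 40756176, plus strand) had 32.54, 31.49, 18.40, 34.33 and 47.05 CPM in the wild type mice and 6.205, 12.02, 9.397 and 8.497 CPM in the knockout mice. Its close relative Adam39 (ENSMUSG00000054033, chromosome 8, 40822990 to 40827037, plus strand) had 25.13, 25.84, 17.80, 28.51 and 34.35 CPM in the wild type mice and 6.072, 9.352, 6.945 and 7.059 CPM in the knockout mice. The knockout means were 27.6% of wild type for Adam25 and 27.9% for Adam39, with wild type replicate 3 again lowest and wild type replicate 5 highest. The log2 fold change was -1.87 for Adam25 (SE 0.27, adjusted p 5.86e-04 by edgeR). For Adam39 it was -1.84 (SE 0.21, adjusted p 8.47e-05 by edgeR).

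Adam34 (ENSMUSG00000079058, chromosome 8, 43650309 to 43710049, minus strand), another testase, had 10.24, 12.61, 5.979, 13.04 and 15.19 CPM in the wild type mice and 2.920, 5.478, 4.835 and 4.967 CPM in the knockout mice. The gap between the lowest wild type and the highest knockout library was narrow here. This gave a log2 change of -1.34 (SE 0.28, adjusted p 0.00789 by edgeR), and the call was lost with total-count scaling (adjusted p 0.0110 by edgeR) and when any one library other than wild type replicate 3 or Rfx2-/- replicate 2 was left out (edgeR adjusted p up to 0.0266).

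**Figure D1:**
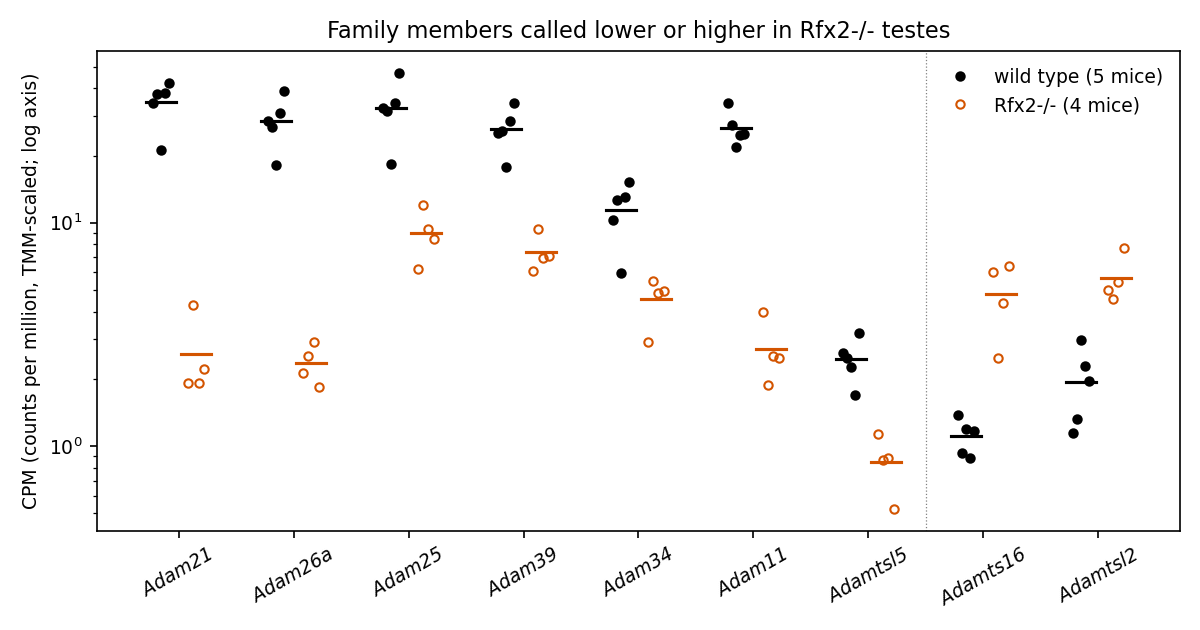
CPM (vertical, log axis) of the 9 called family members in each library, with filled circles for the 5 wild type and open circles for the 4 Rfx2-/- mice, and horizontal bars for the means. The genotypes are separate for every gene, with the widest gaps for Adam21, Adam26a and Adam11.

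A further 2 testis ADAMs were separated by genotype without being called. Adam20 (chromosome 8, 40793273 to 40797303) had 32.31, 31.87, 26.77, 40.82 and 39.89 CPM in the wild type mice and 19.01, 18.24, 13.21 and 5.490 CPM in the knockout mice, giving a log2 change of -1.29 (SE 0.30, adjusted p 0.0150 by edgeR). Adam26b (chromosome 8, 43519762 to 43528106) had 10.85, 9.671, 8.171, 11.79 and 12.85 CPM in the wild type mice and 5.508, 6.881, 3.813 and 5.948 CPM in the knockout mice, giving a log2 change of -0.94 (SE 0.20, adjusted p 0.00994 by edgeR). Adam20 thus missed the limit on p and Adam26b the limit on fold. Adam20 passed with DESeq2 (adjusted p 4.60e-04) and after removal of an exon length trend, and Adam26b without Rfx2-/- replicate 2 (log2 fold change -1.06, adjusted p 0.00187 by edgeR). Over all testis ADAMs, 7 of 20 lay entirely below wild type and none entirely above, against 9.70% and 6.16% of all genes tested. With 20 genes, the lack of any above is close to its share over all genes. Several of the 7 are near-identical copies, so they are not independent cases.

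The other 13 testis ADAMs did not pass the test, and they include the most abundant members of the family. Per kb of exons, Adam3, required for sperm to pass from uterus to oviduct and to bind the egg coat, averaged 425.5 ± 61.3 CPM over the wild type mice (SD, n = 5) and 493.7 ± 111.9 CPM over the knockout mice (SD, n = 4). Adam5 followed at 425.3 ± 56.3 and 283.9 ± 81.7 CPM per kb, Adam32 at 303.1 ± 38.3 and 377.4 ± 96.2 CPM per kb, and Adam2, the beta subunit of the sperm protein fertilin, at 211.1 ± 16.7 and 208.7 ± 28.7 CPM per kb. The wild type levels of Adam3 and Adam5 did not differ beyond their SD, while Adam32 and Adam2 each lay more than an SD below the gene before. The next, Adam18, stood at 56.2 ± 4.58 CPM per kb in wild type. The 5 testis ADAMs called lower lay between 4.42 (Adam34) and 12.5 CPM per kb (Adam25) in wild type. Adam3, Adam5 and Adam32 together made up 63.8% of the summed family CPM in the wild type mice and 64.6% in Rfx2-/- testes.

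Adam5 had 1285, 1310, 1091, 1393 and 1577 CPM in the wild type mice and 703.0, 1216, 668.4 and 967.7 CPM in the knockout mice. Rfx2-/- replicate 2 lay within the wild type range and the other knockout libraries below it. This gave a log2 change of -0.58 (SE 0.20, adjusted p 0.0852 by edgeR). Adam5 was the single member, of 57, in the study's list of genes with an RFX2 peak at the promoter, from chromatin immunoprecipitation at postnatal day 21. That list held 977 of the 23074 genes in the count table, so the family was not enriched in it.

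Adam1a and Adam1b, whose products are alpha subunits of fertilin, had log2 fold changes of -0.61 (SE 0.22, adjusted p 0.0971 by edgeR) and -0.21 (SE 0.19, adjusted p 0.484 by edgeR). In Rfx2-/- replicate 2 Adam1a was at 70.48 CPM and Adam1b at 74.89 CPM, the lowest values of all libraries for both. Adam2 differed by -0.02 (SE 0.14), with 504.4 to 594.1 CPM in the wild type mice and 481.5 to 641.1 CPM in the knockout mice.

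Adam24, a testase linked to the egg's block to further sperm, had 83.23 to 131.1 CPM in the wild type mice and 98.01 to 156.0 CPM in the knockout mice, giving a log2 change of 0.10 (SE 0.18). Log2 fold changes were 0.07 for Adam6b, 0.16 for Adam6a, both of sperm surface complexes with ADAM2 and ADAM3, and 0.11 for Adam30. They were 0.21 for Adam3, 0.32 for Adam32, 0.38 for Adam18, 0.51 for Adam29 and 0.67 for Adam4, with edgeR adjusted p-values from 0.0837 (Adam4) upwards. The genotypes overlapped for all 13 of these genes.

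**Figure D2:**
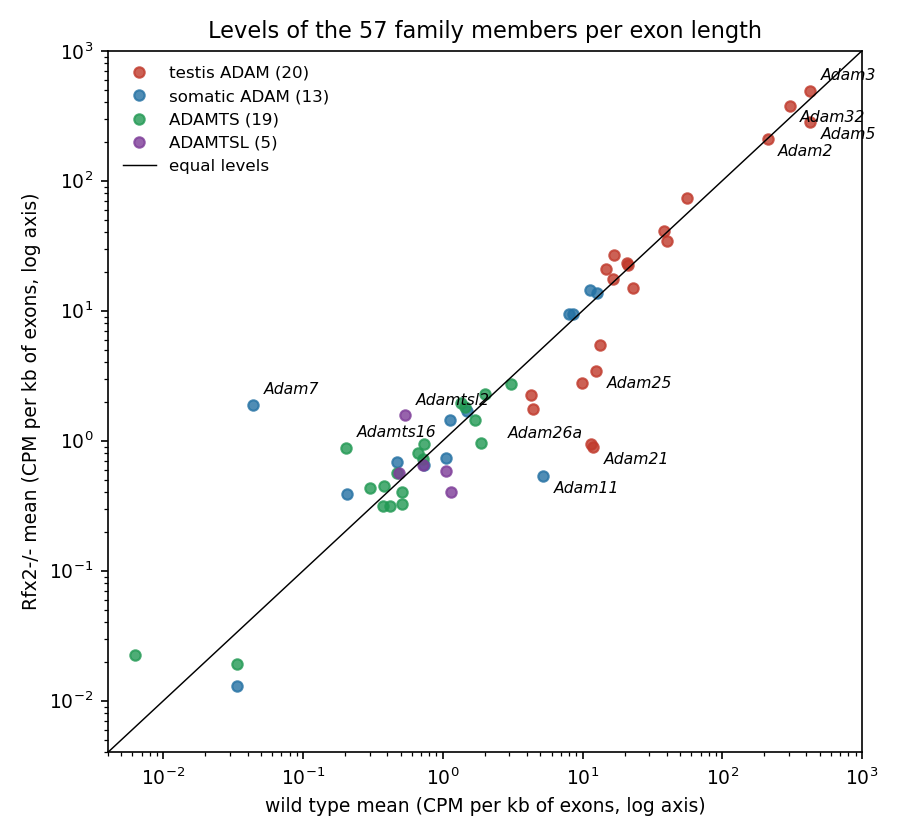
Mean level per kb of exons (CPM per kb) in 4 Rfx2-/- testes (vertical) against 5 wild type testes (horizontal), both on log axes, for the 57 members coloured by group, with a line of equal levels. Adam3, Adam5, Adam32 and Adam2 lie at the top near the line, Adam21, Adam26a and Adam11 far below it, and Adamts16 and Adamtsl2 above it; the Rfx2-/- mean of Adam7 rests on a single library.

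The testis ADAMs differed in gene structure. In 15 of them the coding sequence lies in a single exon, and in Adam2, Adam3, Adam5, Adam18 and Adam32 it is spread over 19 to 22 exons. All 5 testis ADAMs called lower were among the 15 genes of the first kind, whose median log2 fold change was -0.61. The 5 genes of the second kind had a median of 0.21 and no call by edgeR, with 1 gene lower and 1 higher at an unadjusted p under 0.05, and no call by DESeq2. At that unadjusted p, 13.7% of all genes tested were lower and 13.9% higher. The share called lower over all genes tested was 3.68%, so the lack of a call among only 5 genes does not set them apart. The median over all genes tested was 0.03.

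The called testis ADAMs also all carried the zinc-binding codons shown above. All 11 testis ADAMs with these codons have a single coding exon, so this split lies within the one before and is not a separate trait. Several of the lower genes are also close copies of each other, such as Adam25 and Adam39 (96.1% identical) and Adam26a and Adam34 (89.6%). They are therefore not independent cases of either trait. Of the 11 testis ADAMs with them, 5 were called lower, against 3.68% of all genes tested, and the median log2 fold change was -1.29. Of the 9 without them, none was called by edgeR or DESeq2, and the median was 0.21. At an unadjusted p under 0.05, 1 of these 9 was lower and 3 were higher, against 13.7% and 13.9% of all genes tested. In Adam20 the 11 codons were the same as in Adam39. Carrying the site did not go with a lower level in every case, since Adam24 and Adam30 carry it and had log2 fold changes of 0.10 and 0.11. Among somatic ADAMs the only call, Adam11, fell on a gene without the site.

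Many of these genes lie next to each other, and neighbours were compared within each library. The log2 ratio of the CPM of a pair was taken for all 11 pairs of adjacent testis ADAMs within 200 kb, and tested between genotypes with an exact two-sided permutation test, whose smallest possible p is 0.0159 with 5 against 4 mice (0.0291 after adjustment over the 11 pairs). On chromosome 12, Adam4 and Adam21 are 136.6 kb apart. Adam21 was already called lower without overlap, so the test of this pair restates that call and adds no evidence of its own. The log2 ratio of Adam4 to Adam21 was 0.27 ± 0.11 in wild type (SD, n = 5) and 4.77 ± 0.33 in Rfx2-/- testes (SD, n = 4; exact permutation p 0.0159, adjusted p 0.0291), higher in 4 of 4 knockout libraries than in any wild type library.

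On chromosome 8, Adam26b, Adam26a and Adam34 lie in this order. The log2 ratio of Adam26b to Adam26a was -1.40 ± 0.16 in wild type and 1.22 ± 0.58 in Rfx2-/- testes, so that the more abundant gene of the pair was the other one. The log2 ratio of Adam26a to Adam34 fell from 1.35 ± 0.20 to -0.93 ± 0.43. In another group on this chromosome, the log2 ratio of Adam24 to Adam25 rose from 1.80 ± 0.27 to 3.73 ± 0.22. Each of these ratios separated the genotypes completely (exact permutation p 0.0159, adjusted p 0.0291, in 9 of 9 libraries). Adam26a and Adam25 were already called lower without overlap, so these tests too restate the calls and add no evidence of their own. Next to Adam25 stand Adam20 and Adam39, and the ratios of Adam25 to Adam20 and of Adam20 to Adam39 overlapped between genotypes (exact permutation p 0.429 and 0.365).

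In another group on chromosome 8, genes with many coding exons stand side by side in the order Adam18, Adam3, Adam5 and Adam32. The log2 ratio of Adam3 to Adam5 was -0.13 ± 0.06 in wild type and 0.68 ± 0.18 in Rfx2-/- testes. The log2 ratio of Adam5 to Adam32 was 0.80 ± 0.06 in wild type and -0.10 ± 0.05 in Rfx2-/- testes. Both ratios separated the genotypes in every library, including Rfx2-/- replicate 2 (exact permutation p 0.0159, adjusted p 0.0291 for each), although Adam5 itself overlapped between genotypes. Both tests share Adam5, so they are not independent of each other, and tests of pairs were added after values were seen. The ratios of Adam18 to Adam3, Adam1b to Adam1a and Adam6b to Adam6a overlapped (exact permutation p 0.175, 0.0794 and 0.587).

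**Figure D3:**
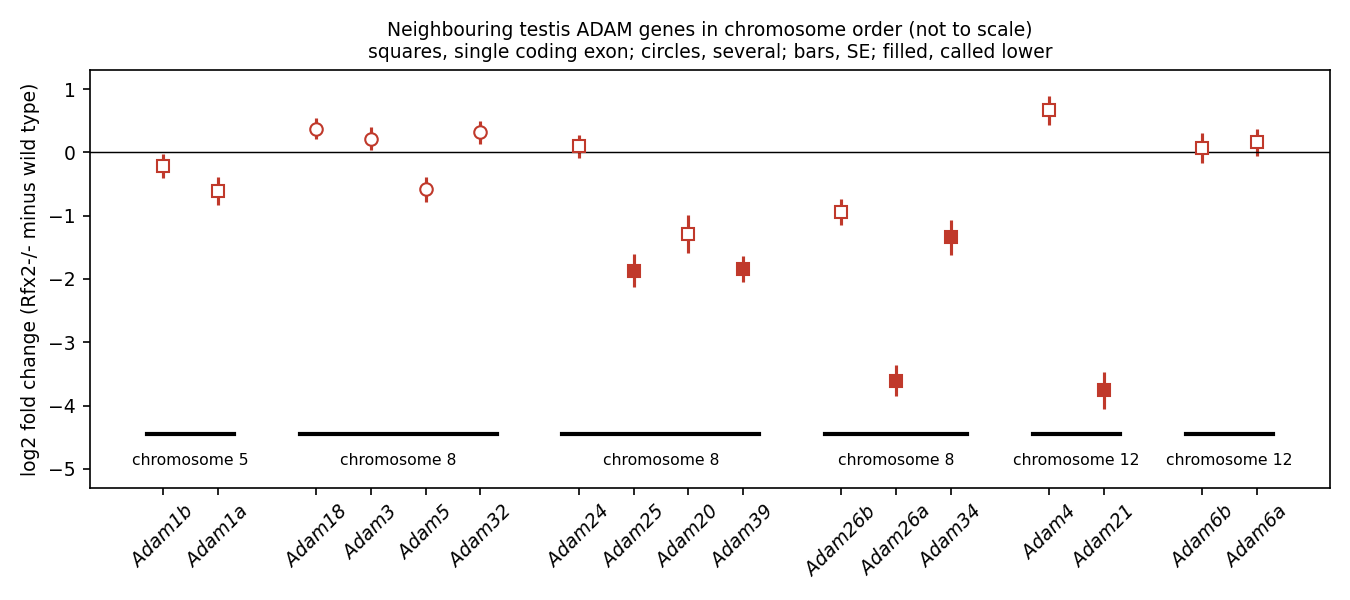
Log2 fold change (vertical, Rfx2-/- minus wild type, 5 against 4 mice) of neighbouring testis ADAMs in chromosome order, with SE bars, squares for genes with a single coding exon, circles for genes with several and filled symbols for genes called lower. Within the groups, Adam21 lies far below Adam4, Adam26a below Adam26b and Adam34, Adam25 below Adam24, and Adam5 below Adam3 and Adam32.

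Near-identical copies limit the values of several of these genes, because the authors discarded reads with several positions in the genome. Coding sequences were 96.1% identical between Adam25 and Adam39, 94.9% between Adam6a and Adam6b, 94.2% between Adam26a and Adam26b, and 90.4% between Adam20 and Adam25. Of all 50-base stretches of their exons, 26.8% (Adam34) to 36.7% (Adam26b) occurred in another gene for the called or separated genes of chromosome 8. With stretches of 46 bases, another read length in the study's methods, these shares were 29.9% (Adam34) to 39.4% (Adam26b). Reads that match another place in the genome were dropped in both genotypes, so the counts and levels per kb of these genes are too low by an unmeasured amount. The shares are not that amount, because only annotated transcripts were searched. The effect on the fold changes was not tested. Adam21 had no such stretch of either length, and Adam11 none of 50 bases and 0.0589% of 46 bases. Adam1a had 77.8%, and its annotated exons overlap Mapkapk5 and Tmem116, so its level per kb is uncertain too.

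Among the somatic ADAMs, 1 of 11 tested genes was called. Adam11 (ENSMUSG00000020926, chromosome 11, 102761439 to 102780262, plus strand), a protease-inactive member known from nervous tissue, had 34.53, 27.39, 21.79, 24.68 and 24.85 CPM in the wild type mice and 3.982, 1.870, 2.519 and 2.484 CPM in the knockout mice. The lowest wild type library was thus far above the highest knockout library. The means were 26.65 ± 4.83 (SD, n = 5) and 2.71 ± 0.90 CPM (SD, n = 4), giving a log2 change of -3.26 (SE 0.24, adjusted p 1.85e-06 by edgeR), and it was called under every alternative. Its relatives Adam22 and Adam23, which bind LGI proteins in the brain, had log2 fold changes of -0.52 (SE 0.16, adjusted p 0.0555 by edgeR, no overlap) and 0.19 (SE 0.21).

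The most abundant somatic ADAMs per kb in wild type were Adam15, an adhesion protein, with 12.59 ± 1.496 CPM per kb, Adam10, the sheddase of Notch receptors, with 11.37 ± 1.494, and Adam17, the sheddase of tumour necrosis factor, with 8.53 ± 0.41. The levels of Adam15 and Adam10 overlapped within their SD, as did those of Adam17 and the next gene, Adam9 (8.01 ± 1.19), so the place of Adam17 is not settled. None of the 3 was called, with log2 fold changes of 0.12 (SE 0.20), 0.34 (SE 0.15) and 0.15 (SE 0.12). The median over the 11 genes tested was 0.19. Adam12, a protease of muscle and stroma, lay above wild type in every Rfx2-/- library (0.56, SE 0.18, adjusted p 0.0732 by edgeR).

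Among the ADAMTS genes, 1 of 17 tested was called. Adamts16 (ENSMUSG00000049538, chromosome 13, 70727802 to 70841811, minus strand), a secreted protease known from the developing gonad and kidney, had 1.375, 0.9284, 1.196, 0.8841 and 1.169 CPM in the wild type mice and 6.006, 2.472, 4.358 and 6.405 CPM in the knockout mice. Every knockout library was higher, and Rfx2-/- replicate 2 was the lowest of them. The means were 1.11 ± 0.20 (SD, n = 5) and 4.81 ± 1.79 CPM (SD, n = 4), giving a log2 change of 2.11 (SE 0.29, adjusted p 4.34e-04 by edgeR), and it was called under every alternative.

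The ADAMTS genes with the highest wild type level per kb were Adamts2, a procollagen protease, with 3.08 ± 0.51 CPM per kb, Adamts5, a protease of cartilage proteoglycans, with 2.001 ± 0.384, and Adamts17 with 1.86 ± 0.355. Those of Adamts5, Adamts17 and the next gene, Adamts7 (1.69 ± 0.381), overlapped within their SD. For the first 3 genes the log2 fold changes were -0.17 (SE 0.24), 0.18 (SE 0.21) and -0.95 (SE 0.30, adjusted p 0.0674 by edgeR). Adamts17 had 13.60, 15.16, 9.632, 10.24 and 13.40 CPM in the wild type mice and 9.091, 2.472, 7.286 and 6.667 CPM in the knockout mice, below wild type in each knockout library. It was called only with the exon length trend removed (adjusted p 0.00870 by edgeR). The median of the 17 genes was 0.18.

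The ADAMTSL genes, which have no protease domain, held 2 calls of opposite direction among 5 genes. Adamtsl5 (ENSMUSG00000043822, chromosome 10, 80339110 to 80348412, minus strand), whose product binds fibrillin microfibrils, had 2.597, 2.476, 2.259, 1.695 and 3.194 CPM in the wild type mice and 1.128, 0.8684, 0.8852 and 0.5229 CPM in the knockout mice. All knockout values were below all wild type values, and the log2 change was -1.48 (SE 0.28, adjusted p 0.00395 by edgeR). Adamtsl2 (ENSMUSG00000036040, chromosome 2, 27079379 to 27108981, plus strand), a microfibril protein linked to growth factor signalling, had 1.146, 1.315, 2.989, 2.284 and 1.948 CPM in the wild type mice and 5.010, 4.543, 5.447 and 7.713 CPM in the knockout mice. All knockout values were above all wild type values, and the log2 change was 1.54 (SE 0.28, adjusted p 0.00347 by edgeR). Both calls were lost when wild type replicate 1, 2 or 5 or Rfx2-/- replicate 3 or 4 was left out, with edgeR adjusted p-values of up to 0.0156 for Adamtsl5 and 0.0167 for Adamtsl2. Adamtsl1 (-0.84, SE 0.27, adjusted p 0.0676 by edgeR) and Adamtsl4 (-0.14, SE 0.28) were not called.

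**Figure D4:**
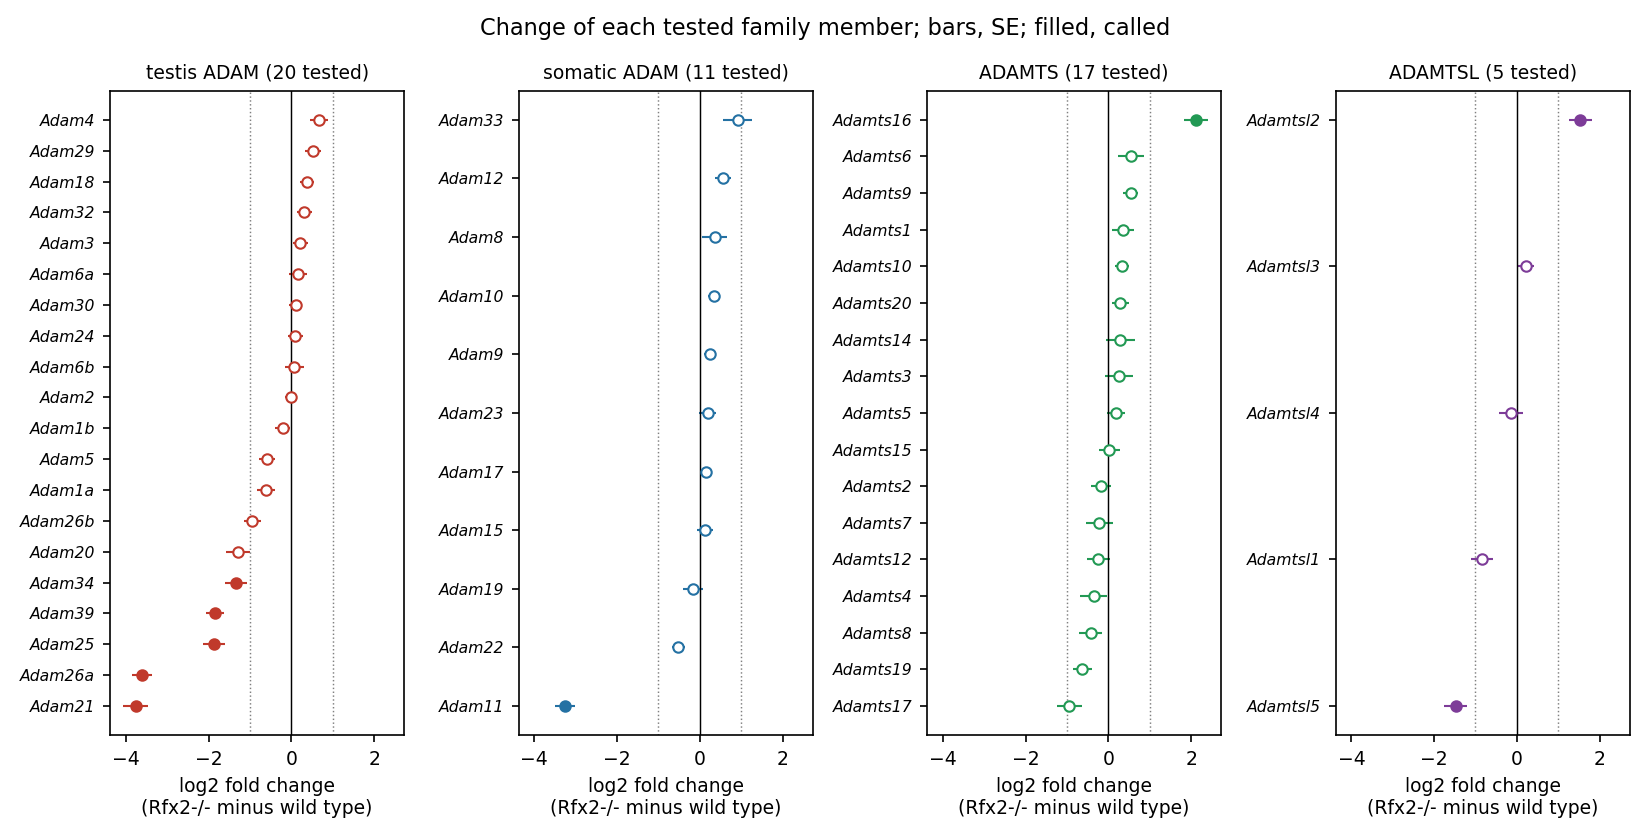
Log2 fold change (horizontal, Rfx2-/- minus wild type, 5 against 4 mice) with SE bars for the 53 members tested, in one panel per group, with filled symbols for called genes and dotted lines at 2-fold. Testis ADAMs extend from -3.76 to 0.67, and the genes of the other groups lie within 2-fold apart from Adam11, Adamts16, Adamtsl2 and Adamtsl5. Of those within 2-fold, Adamts17 (-0.95) and Adam33 (0.91) lie farthest out on either side.

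The 4 groups compared as follows. Of the testis ADAMs 5 of 20 were called lower and of the somatic ADAMs 1 of 11. Of the ADAMTS genes 0 of 17 were called lower and of the ADAMTSL genes 1 of 5. The share called lower over all genes tested was 3.68%. Counts of 0 or 1 in groups this small do not set the somatic ADAMs, ADAMTS or ADAMTSL genes apart from that share. For the ADAMTS genes, DESeq2 likewise called none lower, and 2 of 17 were lower by edgeR at an unadjusted p under 0.05, against 13.7% of all genes tested. The median log2 fold changes were -0.11, 0.19, 0.18 and -0.14. With total-count scaling, which moved the median of all genes from 0.03 to 0.16, that of testis ADAMs turned to 0.02 and that of ADAMTSL genes was -0.01. Summed over the group, testis ADAMs made up 91.2% to 94.2% of the family's CPM in the wild type libraries and 89.7% to 94.9% in the Rfx2-/- libraries. Their sum ranged from 4005 to 5657 CPM in the wild type mice and from 3759 to 5817 CPM in the knockout mice, which overlap widely.

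The testis ADAMs varied together between mice of 1 genotype. Wild type replicate 3 was the lowest wild type library for 19 of 20 testis ADAMs, including all 5 called lower, and wild type replicate 5 the highest for 16. Markers of elongating spermatids showed the same order, with wild type replicate 3 lowest for 12 of 12 and wild type replicate 5 highest for 11. Markers of round spermatids did too, with wild type replicate 3 lowest for 8 of 8 and wild type replicate 5 highest for 5, so this order was not particular to either list. The round spermatid markers summed to 1182 CPM in wild type replicate 3 and to 1595 to 1799 CPM in the other wild type libraries, and to 1321 to 1925 CPM in the knockout mice. All 12 elongating spermatid markers had negative log2 fold changes in Rfx2-/- testes (median -0.76), 1 of them called by edgeR (Spata18, -2.27, adjusted p 1.84e-04 by edgeR) and 4 by DESeq2, and their summed level was 12680 to 24750 CPM in the wild type mice and 10910 to 14130 CPM in the knockout mice. The paper reports that all Rfx2-/- spermatids arrest before they elongate. It counts Tnp1 and Tnp2 mRNAs, which are in this list, among those already present late in the round stage. Levels of this list are therefore not a measure of how many elongating cells a testis held. The part of either cell type in the result of the testis ADAMs was not tested. Without wild type replicate 3, the same 7 members were called lower and the same 2 higher. The medians of the other germ cell lists were 0.26 for round spermatids, 0.08 for late spermatocytes, 0.64 for meiotic prophase and 0.10 for spermatogonia, with no call by edgeR or DESeq2. At an unadjusted p under 0.05, 3 of 8, 0 of 5, 5 of 7 and 0 of 6 of these genes were higher and none lower. The shares over all genes tested were 13.9% higher and 13.7% lower.

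Rfx2-/- replicate 2 was the highest knockout library for 15 of 20 testis ADAMs and the lowest for 9 of 11 somatic ADAMs, 14 of 17 ADAMTS genes and 4 of 5 ADAMTSL genes. Its median log2 difference from the other knockout libraries was 0.56 for testis ADAMs, -0.41 for somatic ADAMs, -0.84 for ADAMTS genes and -0.54 for ADAMTSL genes. The median exon length was 2.605 kb for testis ADAMs and 5.99 kb for the ADAMTS genes tested. Over all genes tested the same difference was 0.57 for exons under 2 kb, 0.16 for 2 to 3 kb and -0.54 for 5 to 8 kb. All 6 endothelial markers were also lowest there of the 4 knockout libraries (summed 15.36 CPM, against 41.24 to 51.00 in the other knockout and 54.07 to 69.36 in the wild type libraries). Their median log2 fold change was -0.26, and 1 was called lower (Vwf, -1.85, adjusted p 0.00630 by edgeR). Vwf held a large part of these sums, with 21.26 to 39.88 CPM in the wild type and 2.472 to 12.19 CPM in the knockout libraries. For each of the other endothelial markers the genotypes overlapped. Without this library all 9 members were called as before and Adam26b was added. With the exon length trend removed, all 9 were also called, and Adam20 and Adamts17 were added. The part of endothelial cells was not tested.

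Markers of the other somatic cells had median log2 fold changes of 0.20 for Sertoli cells, 0.19 for Leydig cells, 0.13 for peritubular myoid cells and 0.46 for macrophages. None of these markers was called by edgeR or DESeq2. At an unadjusted p under 0.05, 2 of 10, 1 of 8, 1 of 6 and 2 of 8 were higher and none lower, against 13.9% higher and 13.7% lower over all genes tested. The macrophage median leaned on Rfx2-/- replicate 2. Against the wild type mean of log2 CPM (0.5 CPM added), the median difference of macrophage markers was 0.04, 1.06, 0.38 and 0.03 in Rfx2-/- replicates 1 to 4. For Leydig cell markers it was -0.19, 0.60, 0.21 and -0.24.

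A total of 4 members had too few counts to be tested. Adam28 had 0 to 4 counts per library and Adamts13 0 to 3. Adamts18 had 2 to 4 counts in wild type and 0 to 9 in Rfx2-/- testes. Adam7 had 1, 1, 8, 1 and 0 counts in wild type and 0, 389, 2 and 1 counts in Rfx2-/- testes.

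Adam7, known from the epididymis, where its protein is passed to sperm, was thus almost confined to Rfx2-/- replicate 2, where it reached 26.0 CPM. In a test without the filter on low counts its edgeR adjusted p was 0.185, and DESeq2 gave it no p. After these values were seen, a list of 13 genes known from the epididymis was examined. Crisp1 had 3361 counts in Rfx2-/- replicate 2 and 0 to 47 in the other libraries, Ces5a 461 against 25 to 83 and Rnase9 137 against 0 to 5. Lcn12 (10 against 0 to 4), Crisp4 (17 against 1 to 15) and Cst12 (3870 against 916 to 2659) were also highest there. Others of the list were absent or nearly so in that library, with 0 counts of Lcn8, Lcn9, Lcn10 and Rnase10, 2 of Lcn5, 1 of Gpx5 and 3 of Cst11. Wild type replicate 3, with 8 counts of Adam7, had 47 of Crisp1. The part of epididymal RNA in other results of this library was not tested.

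**Figure D5:**
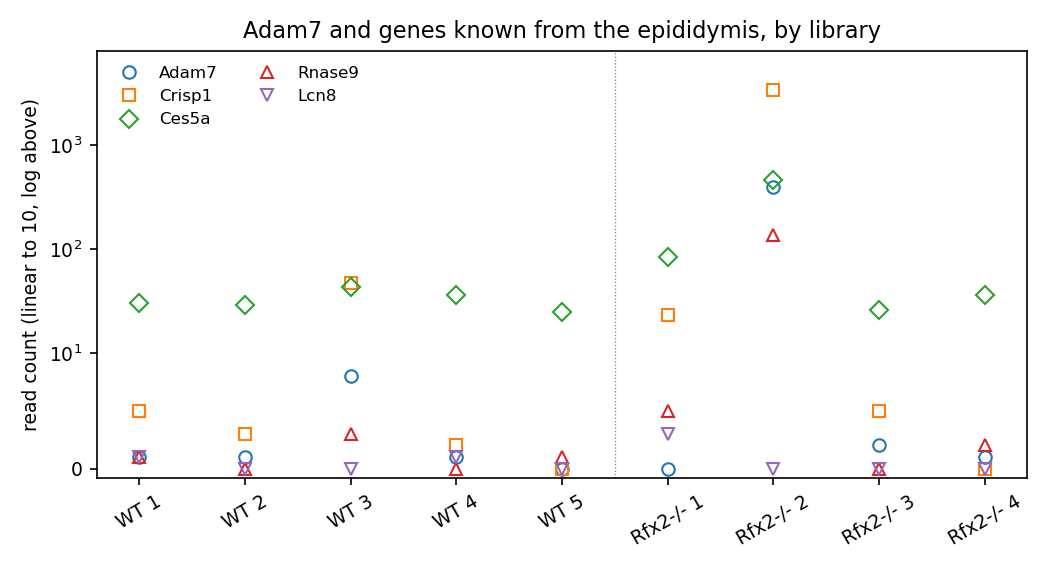
Read counts (vertical, linear to 10 and logarithmic above) of Adam7 and of 4 genes of the epididymis list in each of the 5 wild type (WT) and 4 Rfx2-/- libraries. Adam7, Crisp1, Ces5a and Rnase9 are highest in Rfx2-/- replicate 2, and Lcn8 stays at 3 counts or fewer throughout.

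Genes that act on the family were described by lists. Proteins linked to the maturation of ADAM3 and its arrival at the sperm surface, among them chaperones of the endoplasmic reticulum and proteins of the germ cell membrane, had 0 of 15 genes called by edgeR or DESeq2, a median log2 fold change of 0.19, and 1 gene lower and 3 higher at an unadjusted p under 0.05. At that p, 13.7% of all genes tested were lower and 13.9% higher. The list's highest levels per kb in wild type were those of Cmtm2b (0.18, SE 0.23) and Lypd4 (0.04, SE 0.18), both membrane proteins. The chaperone Clgn (calmegin) had 983.8 ± 69.6 CPM in the wild type mice and 1035 ± 93.1 CPM in the knockout mice. Ces5a and Rnase10 stood in both this list and the epididymis list. Ces5a was 1 of the 3 higher genes, and its fold change rested on Rfx2-/- replicate 2. Rnase10 was the lower gene (log2 fold change -1.54, SE 0.67). It had 2.458 to 4.641 CPM in the wild type mice and 1.46, 0, 0.2043 and 2.941 CPM in the knockout mice. Rfx2-/- replicates 1, 2 and 3 thus lay below every wild type library, replicates 2 and 3 furthest (0 and 3 counts), and replicate 4 within the wild type range.

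Inhibitors, carriers and activators of somatic ADAM and ADAMTS proteins had 1 of 19 tested genes called, with a median of -0.07. Timp1, an inhibitor of metalloproteases, had 2.674, 1.625, 2.856, 1.768 and 2.025 CPM in the wild type mice and 4.678, 12.96, 13.14 and 3.072 CPM in the knockout mice. The knockout libraries were all above wild type but spread widely, and the log2 change was 1.93 (SE 0.41, adjusted p 0.00899 by edgeR). Tspan33, a tetraspanin that carries ADAM10, was lower in each knockout library (-0.83, SE 0.14, adjusted p 0.00257 by edgeR), under the 2-fold limit. The highest levels per kb were those of Timp2 (-0.17, SE 0.18), another inhibitor, and Frmd8 (-0.16, SE 0.14), which stabilises the carrier of ADAM17.

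Promoter windows (250 bases before to 50 after the start, RefSeq, GRCm38.p6) were found for 31 members, 33 windows in all, and were searched on both strands. The full palindromic X-box, the motif bound by RFX proteins, occurred in 0 of 33 windows and in 2.17% of all 32851 windows. Its single arm, searched as GTTGCC, occurred in those of Adam19 and Adam26b (12.5% of all windows), and GTTACC in those of Adam6a and Adam6b (7.21% of all). Neither occurred in the windows of the called members found, namely Adam21, Adam25, Adam34, Adamtsl2 and Adamtsl5. No window was found for the called Adam26a, Adam39, Adam11 and Adamts16, nor for Adam5, the member with an RFX2 peak. The CRE motif TGACGTCA, bound by CREM, occurred in no member window and in 1.79% of all. These counts cover these letters in these windows only.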

How the data were processed

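Decapsulated testes were profiled by RNA-seq in 5 wild type and 4 Rfx2-/- mice, 1 library per mouse. The authors deposited raw read counts per gene (whole numbers, no normalisation). According to the study's methods and the submitters' processing notes, TruSeq libraries were sequenced as single reads of 50 bases (46 bases, mapped with Bowtie, in another section of the methods), processed with CASAVA 1.8.2, mapped to GRCm38 with STAR 2.4 and counted with featureCounts 1.4.6 over the merged exons of protein coding isoforms. Reads with several genomic positions, or touching exons of more than one gene, were dropped, so genes with near-identical copies lose reads. Use of strand is not given in the sources used here.

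Samples were grouped by the genotype in the labels, each library was from another mouse, and replicate numbers follow deposition order. The study used littermates where it could, and which mice shared a litter is not given in the sources used here, so related mice may share variation that the tests take as independent. Libraries of 1 genotype differed by 4.32 to 199 chi-square units per gene, against about 1 for sampling noise, so none was counted as a repeat of another. Counts were tested with edgeR 4.0.16 in R 4.3.3 (robust quasi-likelihood F test, TMM factors, filterByExpr, genotype as single factor), with Benjamini-Hochberg adjustment over 15613 genes. The procedure was tested on simulated data. Levels are CPM, scaled by TMM factors, and levels per kb use the merged exons in GENCODE M21, which held 96.6% of the gene IDs. A count of 3, the limit that 0 observed counts allow, equals 0.0995 CPM in Rfx2-/- replicate 1 and 0.196 to 0.234 CPM elsewhere, for counting error only. Exact permutation tests used scipy 1.17.1, and identities Biopython 1.88 alignments of coding sequences.

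Members, groups and gene lists were chosen with earlier results of these data and the study's own tables known, and the tests of neighbouring pairs and the epididymis list were added after values were seen. Every called member, every testis ADAM, the 3 most abundant members of each other group and, of each pathway list, the called and the 2 most abundant genes were to be named, and others named in the text were chosen after their values were seen. Alternatives were DESeq2 1.42.0, RLE factors, total counts, no filter, removal of an exon length trend, an adjusted p of 0.05 with no fold limit, and omission of each library. Shared exon stretches of 46 bases were counted as an alternative chosen after seeing the data. No member was left out. RFX2 promoter peaks were used as list membership only.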

Additional observations from a re-analysis of the deposited data

Results flagged for a closer look

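In each genotype, the library farthest from the rest was compared with the others by its gap over the whole range (Dixon's 95% limit), for the 32 members named by the rule, in 64 groups of values. This marked 4 values, of Adam21, Adam10, Adam2 and Adamtsl4, where chance alone gives about 3.2. Adam7 was added because of its value in Rfx2-/- replicate 2, and its 2 marked values are not part of that count. Adam21 was at 4.275 CPM in Rfx2-/- replicate 2, where its genotype otherwise ranged from 1.907 to 2.222 CPM, and was still below all wild type libraries. Adam7 was at 25.99 CPM in Rfx2-/- replicate 2, where its genotype otherwise ranged from 0 to 0.1362 CPM. Adam7 was also at 0.5314 CPM in wild type replicate 3, against 0 to 0.07737 CPM in the others of the wild type, a value of 8 counts. Adam10 was at 64.37 CPM in wild type replicate 3, against 47.75 to 50.49 CPM. Adam2 was at 641.1 CPM in Rfx2-/- replicate 4, against 481.5 to 506.4 CPM. Adamtsl4 was at 4.049 CPM in wild type replicate 1, against 2.476 to 2.79 CPM.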

How the results depend on the processing

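Adam21, Adam26a, Adam25, Adam39, Adam11 and Adamts16 were called in the same direction under all 15 alternatives, and no named member reversed a call. The number of members called lower was 7, and ranged from 5 to 8 when single libraries were left out, losing Adam34 and Adamtsl5 (5 called) without wild type replicate 1, 2 or 5 or Rfx2-/- replicate 3 or 4, and Adam34 (6 called) without wild type replicate 4 or Rfx2-/- replicate 1. The number called higher was 2 and ranged from 1 to 2, with Adamtsl2 lost in the same 5 omissions as Adamtsl5. It was 8 lower with DESeq2, 6 with total counts, 9 with the exon length trend removed, 9 when the adjusted p limit was 0.05 and no fold was required and 7 with RLE factors or no filter, with 2 higher in each. Total counts moved the median of all genes from 0.03 to 0.16, and those of testis ADAMs to 0.02 and of ADAMTSL genes to -0.01. The median of testis ADAMs ranged from -0.21 to -0.04 over the omissions, that of somatic ADAMs from 0.12 to 0.31, that of ADAMTS genes from 0.00 to 0.28 and that of ADAMTSL genes from -0.24 to 0.08, positive without wild type replicate 1 or Rfx2-/- replicate 2. No paired analysis was possible because the labels identify mice by numbers that the genotypes do not share. Depth limits Adam28, Adamts13 and Adamts18, which had at most 9 counts in any library.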
